A study of Mus musculus with 16 samples.

Results

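The dendritic cell identity and migration genes are 10 named mouse genes: Ccr7, Fscn1, Flt3, Zbtb46, Cd24a, Cd1d1, Irf4, Batf3, Clec9a and Xcr1. Every probe set whose only gene symbol was 1 of these names was taken. That gave 19 of the 34945 single-symbol probe sets and 9 of the 18193 genes that such probe sets name. Clec9a had no single-symbol probe set and was not analysed here. Of the 9 genes measured, 8 passed the filter on low values and were among the 11908 genes tested. The ninth, Xcr1, did not pass.

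The arrays came from macrophages sorted from the perigonadal fat of mice aged 12 to 14 weeks. Lean mice were C57BL/6J Lep +/+, and obese mice were C57BL/6J Lep ob/ob, which lack leptin in the whole body from conception. From both, F4/80+ CD11b+ cells were divided into FB cells without CD11c and FBC cells with CD11c, with 4 arrays in each of the 4 groups. All RNA went through 2 rounds of amplification, and the labels tell neither the sex of the mice nor which arrays came from the same mouse.

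Dendritic cells take up antigen in tissues, mature, and travel through lymph vessels to lymph nodes, where they prime T cells. Classical dendritic cells depend on the growth factor receptor Flt3 and are marked by the transcription factor Zbtb46. Cross-presenting cDC1 cells rest on Batf3 and Irf8, while cDC2 cells rest on Irf4, a factor that macrophages also use. CD11c and MHC class II occur on both macrophages and dendritic cells in fat, so a sort on such surface proteins does not by itself separate the lineages.

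Levels below are log2 of the deposited intensity plus 16 after quantile normalization, and the median probe set of every array lay at 5.87. A level belongs to its probe set, so levels of different genes were not compared. The sort marker Itgax, the gene of CD11c, rose in FBC cells by 1.49 in lean mice (adjusted p = 0.0213), and the rise in obese mice was 2.21 (adjusted p = 0.000111). All 17 macrophage core genes lay above the array median on all 4 arrays of every group. The actin 3′ to 5′ ratio, a sign of RNA quality, was 45.0 to 53.3 on array 4 of lean FB, lean FBC and obese FB, and 1.15 to 10.9 on the other 13 arrays. In sorted but bulk RNA, fewer cells of a type and less RNA per cell cannot be told apart. With 4 mice of each genotype, no label says that the 4 arrays of a group came from separate mice or sorts. A p-value here thus speaks of array-to-array spread, part or all of which may be technical.

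Obesity was accompanied by lower levels of most of these genes in both populations. In FB cells, 5 of the 8 tested genes fell in obese mice and none rose, where 4.07% of all tested genes fell and 1.81% rose. In FBC cells, 6 of 8 fell and none rose, where 5.95% of all tested genes fell and 8.12% rose. Irf4, Batf3, Zbtb46, Cd1d1 and Fscn1 fell in both populations, and Cd24a fell in FBC cells. The median log2 change over the 8 genes was -1.31 in FB cells and -1.58 in FBC cells, against 0.03 and 0.08 over all tested genes. The arrays of the lean and obese groups did not overlap, with the obese arrays lower, for 5 genes in FB cells (6.32% of all tested genes) and for 6 in FBC cells (7.61%). Between populations, Ccr7 and Fscn1 rose in FBC cells in lean mice, 2 of 8 genes, where 0.151% of all tested genes rose. In obese mice Ccr7, Fscn1 and Irf4 rose, 3 of 8, where 5.11% of all tested genes rose. The median change from FB to FBC was 0.56 in lean and 0.54 in obese mice, against 0.00 and 0.08 over all tested genes. The FBC arrays all lay above the FB arrays for 3 genes in lean mice (3.49% of all tested genes) and for 3 in obese mice (11.0%). Each group enters 2 of these 4 comparisons, so their values share arrays. The genes were chosen with earlier results of these data known, so counts above the shares of all tested genes describe and do not test.

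**Figure D1:**
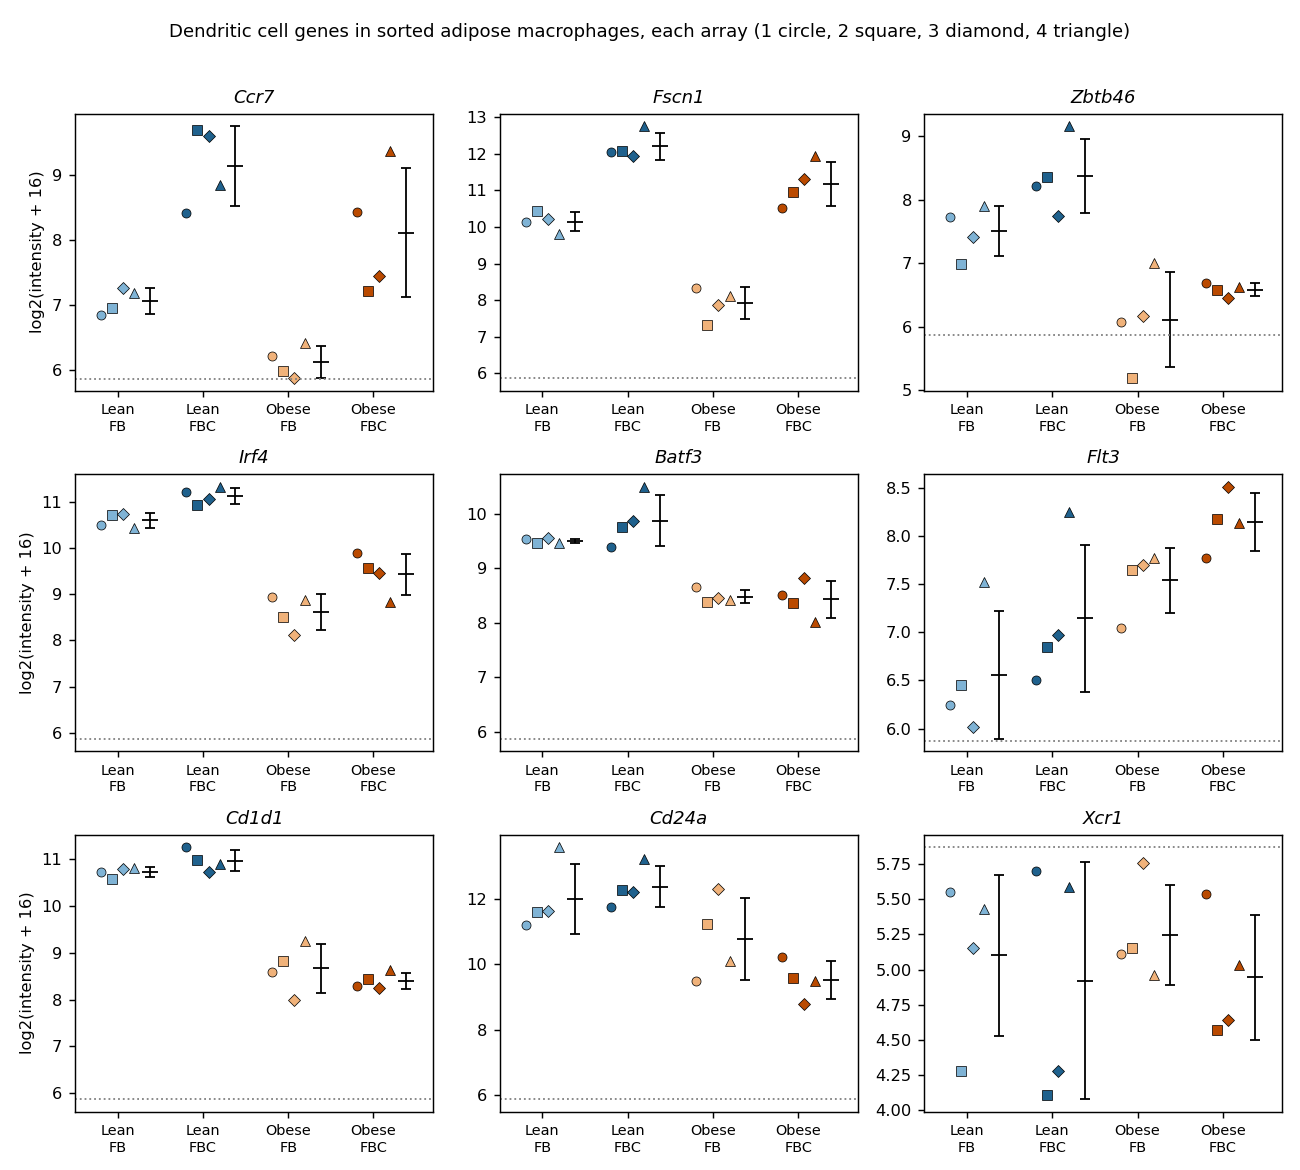
Log2 level (vertical axis) of each of the 9 measured genes on the 16 arrays, by group, with each group's mean and SD over 4 arrays. Circles, squares, diamonds and triangles are arrays 1 to 4, and the dotted line is the array median of 5.87. Irf4, Batf3 and Cd1d1 separate lean from obese arrays in both populations, and Xcr1 lies at or below the dotted line throughout.

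Ccr7 (chr11:99144199-99155077 on GRCm38.p6) encodes the chemokine receptor that leads mature dendritic cells into lymph vessels. Its probe set read 6.85, 6.95, 7.27 and 7.18 on the lean FB arrays and 8.42, 9.69, 9.60 and 8.84 on the lean FBC arrays. In obese mice it read 6.22, 5.99, 5.88 and 6.42 in FB cells and 8.43, 7.22, 7.44 and 9.37 in FBC cells. Every FBC array exceeded every FB array of the same genotype, and the obese FB arrays lay close to the array median. Ccr7 rose in FBC cells over FB cells by 2.07 ± 0.38 (SE) in lean mice, 4.20-fold (adjusted p = 0.0348). In obese mice it rose by 1.99 ± 0.38, 3.97-fold (adjusted p = 0.00424).

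The lean difference was close to the threshold. Its adjusted p passed 0.05 when any of 9 single arrays was left out: lean FB arrays 1 to 4 (0.0766, 0.103, 0.09 and 0.0548), lean FBC arrays 2 to 4 (0.108, 0.123 and 0.0715), and obese FB arrays 2 and 3 (0.0542 and 0.0532). The change itself stayed between 1.88 and 2.17 in these fits.

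The obesity differences of Ccr7 did not pass the test. In FB cells the change was -0.94 (95% interval -1.75 to -0.13, adjusted p = 0.169), although no obese array reached the lean ones. In FBC cells it was -1.02 (95% interval -1.83 to -0.21, adjusted p = 0.0853), and obese FBC array 4, at 9.37, lay within the lean range. Without that array the FBC change was -1.44 (adjusted p = 0.011).

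Fscn1 (chr5:142960355-142973189) encodes fascin, an actin-bundling protein of the long processes of mature dendritic cells. Its brightest probe set read 10.13, 10.44, 10.21 and 9.82 in lean FB cells and 12.04, 12.08, 11.95 and 12.76 in lean FBC cells. Obese FB arrays read 8.34, 7.33, 7.88 and 8.11, and obese FBC arrays 10.51, 10.96, 11.32 and 11.94. The 4 groups formed an order with no overlap: obese FB lowest, then lean FB, obese FBC and lean FBC, the last pair separated by 11.94 against 11.95. From FB to FBC, Fscn1 rose by 2.06 ± 0.29 in lean mice (4.16-fold, adjusted p = 0.00816). The rise was 3.27 ± 0.29 in obese mice (9.62-fold, adjusted p = 1.37e-05). With obesity it fell by 2.23 ± 0.29 in FB cells (adjusted p = 0.000239) and fell by 1.03 ± 0.29 in FBC cells (adjusted p = 0.0268).

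The fall in FBC cells lost its call when 1 of 4 arrays was left out: lean FBC array 2 (adjusted p = 0.051), lean FBC array 4 (change -0.84, adjusted p = 0.0719), obese FBC array 1 (0.0813) or obese FBC array 2 (0.0778). It was also lost without the 3 arrays of high actin ratio (change -0.84, 0.0558) and in a fit of the compared groups alone (0.0536). The difference between the FB and FBC obesity changes of Fscn1 was 1.21 ± 0.41 (95% interval 0.35 to 2.07, adjusted p = 0.226) and did not pass. The other 3 Fscn1 probe sets were much dimmer and none was called in any comparison. The brightest of these 3 lay above the array median on all 16 arrays. In the fit of all single-symbol probe sets it changed with obesity by 0.38 (adjusted p = 0.582) in FB cells and 0.04 (0.964) in FBC cells. With all 4 probe sets averaged the obesity change was -0.49 in FB cells (adjusted p = 0.0823) and -0.21 in FBC cells (0.411), and the FBC over FB difference was 0.59 in lean (0.183) and 0.87 in obese cells (0.00295).

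Irf4, Batf3 and Zbtb46 are transcription factors. Irf4 and Batf3 bind DNA together on composite elements that join an AP-1 site to an interferon regulatory factor site. RefSeq promoters (250 bases before to 50 after the start, GRCm38.p6) were given for 7 of the 10 genes, without Ccr7, Cd24a and Cd1d1. The 4 shown belong to genes that fell together with obesity in both populations. Capitals mark the only match to any motif searched, and all strands run in the direction of the gene:
Zbtb46 (chr2:181424339-181424638, minus strand): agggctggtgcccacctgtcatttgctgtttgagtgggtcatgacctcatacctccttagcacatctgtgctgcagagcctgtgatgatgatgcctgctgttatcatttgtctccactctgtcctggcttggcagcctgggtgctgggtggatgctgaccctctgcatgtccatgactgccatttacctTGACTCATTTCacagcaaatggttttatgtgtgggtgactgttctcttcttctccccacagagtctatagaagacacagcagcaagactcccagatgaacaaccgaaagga
Irf4 (chr13:30748983-30749282, plus strand): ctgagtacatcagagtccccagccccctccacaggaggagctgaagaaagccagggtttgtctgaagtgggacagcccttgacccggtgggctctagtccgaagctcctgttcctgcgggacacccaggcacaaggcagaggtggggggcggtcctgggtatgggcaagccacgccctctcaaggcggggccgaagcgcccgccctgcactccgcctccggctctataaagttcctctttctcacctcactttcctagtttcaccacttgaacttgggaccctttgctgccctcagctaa
Batf3 (chr1:191098164-191098463, plus strand): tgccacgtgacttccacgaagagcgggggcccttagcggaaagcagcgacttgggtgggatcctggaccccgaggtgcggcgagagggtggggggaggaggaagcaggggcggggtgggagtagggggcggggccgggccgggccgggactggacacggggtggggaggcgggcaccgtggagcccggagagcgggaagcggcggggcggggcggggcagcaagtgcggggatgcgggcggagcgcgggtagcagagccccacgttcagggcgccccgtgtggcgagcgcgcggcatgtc
Fscn1 (chr5:142960105-142960404, plus strand): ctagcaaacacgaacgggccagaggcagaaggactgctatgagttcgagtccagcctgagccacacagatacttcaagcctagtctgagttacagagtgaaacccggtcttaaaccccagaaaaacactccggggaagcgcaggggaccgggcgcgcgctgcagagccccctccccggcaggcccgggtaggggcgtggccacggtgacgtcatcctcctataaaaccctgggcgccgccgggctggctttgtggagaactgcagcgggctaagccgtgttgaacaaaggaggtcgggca

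The motifs searched on both strands were GGAANNGAAA (an ETS-IRF composite, in 2.72% of the 32851 promoters of the table), GAAANNGAAA (an interferon response element, 3.44%) and GGGA, any base, then TTTCC (an NF-kB site, 0.411%). AP-1-IRF composites were searched in an adjacent form, GAAA directly followed by TGANTCA (0.125%), and in a spaced form, TTTC, any 4 bases, then TGANTCA (0.119%). These patterns can overlap one another. The capitals in Zbtb46, TGACTCATTTC, match the adjacent AP-1-IRF form on the opposite strand, at bases -61 to -51 from the start. That start lies inside the annotated span of Zbtb46 (chr2:181371009-181493262) and is an internal start. A match is a description of the letters, and the windows of the other 6 genes held none of the 5 patterns.

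Irf4 (chr13:30749233-30766981) read 10.50, 10.73, 10.75 and 10.45 in lean FB cells and 11.23, 10.94, 11.07 and 11.34 in lean FBC cells. In obese mice it read 8.95, 8.52, 8.12 and 8.88 in FB cells and 9.89, 9.58, 9.47 and 8.83 in FBC cells. All 8 lean arrays exceeded all 8 obese arrays. With obesity Irf4 fell by 1.99 ± 0.23 in FB cells, 3.98-fold (adjusted p = 7.02e-05), and fell by 1.70 ± 0.23 in FBC cells, 3.26-fold (adjusted p = 0.000119).

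Irf4 rose from FB to FBC in obese mice by 0.83 ± 0.23 (adjusted p = 0.0316), with obese FBC array 4 inside the FB range. That call was lost without obese FB array 2 (adjusted p = 0.0777) or 3 (change 0.66, 0.0939), or without obese FBC array 1 (0.0832), 2 (0.0916) or 3 (0.0658). It was also lost in a fit of the compared groups alone (0.083) and with all single-symbol probe sets tested (0.0573). In lean mice the difference was 0.54 (95% interval 0.06 to 1.02, adjusted p = 0.546), and the arrays did not overlap. In a fit of all single-symbol probe sets the second, dimmer Irf4 probe set gave -0.77 (adjusted p = 0.138) in FB cells and -0.57 (0.215) in FBC cells with obesity, neither past the test.

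Batf3 (chr1:191098414-191108943), the AP-1 factor on which cDC1 development depends, read 9.53, 9.46, 9.55 and 9.47 in lean FB cells and 9.39, 9.75, 9.87 and 10.50 in lean FBC cells. Obese arrays read 8.65, 8.38, 8.46 and 8.42 in FB cells and 8.50, 8.37, 8.83 and 8.02 in FBC cells. Again all lean arrays lay above all obese arrays. Batf3 fell by 1.03 ± 0.21 in FB cells (2.04-fold, adjusted p = 0.00876) and fell by 1.45 ± 0.21 in FBC cells (2.73-fold, adjusted p = 0.000324). FBC and FB cells differed by 0.37 (95% interval -0.08 to 0.83) in lean mice and by -0.04 (-0.50 to 0.41) in obese mice, neither past the test.

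Zbtb46, a zinc finger factor that marks the classical dendritic cell lineage, read 7.73, 6.99, 7.41 and 7.90 in lean FB cells and 8.22, 8.36, 7.75 and 9.16 in lean FBC cells. Obese arrays read 6.08, 5.19, 6.17 and 7.01 in FB cells and 6.69, 6.57, 6.45 and 6.63 in FBC cells. In FBC cells the lean and obese arrays were apart, while in FB cells obese array 4 crossed lean array 2. With obesity Zbtb46 fell by 1.39 ± 0.33 in FB cells (2.63-fold, adjusted p = 0.0203) and fell by 1.79 ± 0.33 in FBC cells (3.45-fold, adjusted p = 0.00223).

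The FB call of Zbtb46 was lost without lean FB array 1 (adjusted p = 0.0656) or 3 (0.053), or without obese FB array 2 (0.0674) or 3 (0.05), and in a fit of the compared groups alone (0.0575). The FBC call was kept without each array in turn. With the gene's 4 probe sets averaged the FB change was -0.53 (0.215) and the FBC change -0.89 (0.021). In the fit of all single-symbol probe sets its second-brightest probe set gave -0.58 (adjusted p = 0.309) in FB cells and -0.86 (0.0649) in FBC cells. Zbtb46 levels in FBC and FB cells differed by 0.87 in lean mice (95% interval 0.16 to 1.57, adjusted p = 0.482), and obese mice showed a difference of 0.47 (adjusted p = 0.401), neither past the test.

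Flt3 (chr5:147330741-147400489), the receptor whose ligand drives dendritic cell development, was the 1 gene of the 8 with higher estimates in obese mice. It read 6.25, 6.45, 6.02 and 7.52 in lean FB cells and 6.50, 6.85, 6.97 and 8.25 in lean FBC cells. Obese arrays read 7.04, 7.65, 7.70 and 7.77 in FB cells and 7.77, 8.17, 8.51 and 8.13 in FBC cells. In both lean groups array 4, an array of high actin ratio, stood above the other 3 and inside the obese range. The change with obesity was 0.98 (95% interval 0.23 to 1.73, adjusted p = 0.119) in FB cells and 1.0 (0.25 to 1.75, adjusted p = 0.0697) in FBC cells, neither past the test.

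Without the 3 arrays of high actin ratio, Flt3 rose by 1.22 ± 0.23 in FB cells (adjusted p = 0.0024) and by 1.37 ± 0.22 in FBC cells (adjusted p = 0.000683). Leaving out lean FB array 4 alone gave 1.30 in FB cells (0.0163) and 1.0 in FBC cells (0.0332). Leaving out lean FBC array 4 alone gave 0.98 (0.0449) and 1.37 (0.00876). With the actin ratio as a covariate Flt3 also rose, by 1.01 ± 0.22 in FB cells (0.00947) and by 1.44 ± 0.24 in FBC cells (0.000968). Array weights gave 1.39 (7.76e-05) and 1.23 (0.000501). In FBC cells the rise passed as well without quantile normalization (1.12, 0.0313) and with median centring (1.08, 0.0435). Most alternatives left Flt3 uncalled: 25 of 30 in FB cells and 23 of 30 in FBC cells. The adjusted p reached 0.316 in FB cells and 0.179 in FBC cells.

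Cd1d1 (chr3:86995834-87012358) encodes the CD1d molecule that presents lipid antigens to natural killer T cells. Its brighter probe set read 10.72, 10.59, 10.80 and 10.81 in lean FB cells and 11.26, 10.99, 10.73 and 10.89 in lean FBC cells. Obese arrays read 8.60, 8.83, 7.99 and 9.25 in FB cells and 8.30, 8.44, 8.24 and 8.63 in FBC cells. The lowest lean array stood above the highest obese one by over 1 log2 unit. Cd1d1 fell by 2.06 ± 0.22 in FB cells, 4.18-fold (adjusted p = 3.92e-05), and fell by 2.57 ± 0.22 in FBC cells, 5.93-fold (adjusted p = 2.65e-06). Its other probe set, fitted with all single-symbol probe sets, also fell: it fell by 1.37 in FB cells (adjusted p = 0.00193) and fell by 1.70 in FBC cells (adjusted p = 0.000101), where 1.35% and 2.65% of those probe sets fell. FBC and FB cells differed by 0.24 in lean and -0.26 in obese mice (adjusted p = 0.838 and 0.482).

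Cd24a (chr10:43579169-43584265) encodes a heavily glycosylated surface protein of cDC1 cells that is also abundant on eosinophils, neutrophils and B cells. It read 11.22, 11.60, 11.64 and 13.59 in lean FB cells and 11.75, 12.28, 12.23 and 13.24 in lean FBC cells. Obese arrays read 9.48, 11.25, 12.30 and 10.09 in FB cells and 10.23, 9.59, 8.79 and 9.50 in FBC cells. In FBC cells all lean arrays exceeded all obese ones, and in FB cells the groups overlapped. With obesity Cd24a fell by 2.85 ± 0.57 in FBC cells, 7.20-fold (adjusted p = 0.00389). In the fit of all single-symbol probe sets, 1 other Cd24a probe set fell by 2.83 (adjusted p = 0.0202) and the last fell by 2.79 (adjusted p = 0.00153).

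In FB cells the change of Cd24a was -1.23 (95% interval -2.44 to -0.02, adjusted p = 0.236). It was -0.71 (0.428) without lean FB array 4 and -0.80 (0.489) without obese FB array 1. Leaving out the 3 high actin arrays gave -0.48 (0.586), and the value was -0.14 (0.799) with array weights. From FB to FBC the lean difference was 0.36 (adjusted p = 0.927) and the obese one -1.25 (95% interval -2.46 to -0.04, adjusted p = 0.185), neither past the test.

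Siglecf, an eosinophil receptor picked after its values were seen, is given beside Cd24a. It read 8.53, 8.01, 7.98 and 11.98 in lean FB cells and 7.84, 8.37, 8.65 and 9.65 in lean FBC cells. Obese arrays read 5.77, 7.93, 8.99 and 7.68 in FB cells and 6.26, 5.79, 6.27 and 6.32 in FBC cells. The highest array of both genes was array 4 in lean FB and lean FBC cells and array 3 in obese FB cells. In obese FBC cells they differed: Cd24a was highest on array 1 (10.23) and Siglecf on array 4 (6.32). Array 4 of both lean groups was also an array of high actin ratio. Siglecf changed with obesity by -2.47 in FBC cells (adjusted p = 0.0388) and by -1.53 in FB cells (adjusted p = 0.269).

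Of 4 tested eosinophil genes, 1 fell in FB cells (Rnase2a) and 2 in FBC cells (Rnase2a and Siglecf). Rnase2a changed by -5.33 in FB cells (adjusted p = 4.15e-06) and by -4.48 in FBC cells (adjusted p = 8.68e-06). Its mean level was 9.97 in FB and 9.95 in FBC cells of lean mice, against 4.64 and 5.47 in obese mice. Ccr3 and Alox15 were called in neither population. The sums given next include Rnase2a, and its part in them was not tested. The summed intensity of the 7 eosinophil genes with a probe set was 1321 to 6744 in lean FB, 1096 to 2270 in lean FBC, 106 to 999 in obese FB and 134 to 181 in obese FBC cells. The granule genes Epx and Prg2 lay at or below the array median on every array. The 11 B cell genes summed to 4824 to 8477, 5815 to 8000, 3015 to 5075 and 2049 to 3448 in the same order of groups. Of 7 tested, none fell in FB cells and 1 in FBC cells, where 4.07% and 5.95% of all tested genes fell. That gene, Ighm, fell by 1.18 (adjusted p = 0.00389), with mean levels of 12.53, 12.54, 11.85 and 11.36 in the same order. Pax5 and Cr2 lay at or below the array median on every array. The 10 neutrophil genes summed to 4781 to 6462, 670 to 3154, 929 to 3630 and 411 to 1217. Of 7 tested, 1 rose and 1 fell in FB cells, where 1.81% of all tested genes rose and 4.07% fell. In FBC cells 1 fell, where 5.95% of all tested genes fell. Counts of 1 in a list of 7 genes are too few to read as a change of the list. The part of these cell types in the level of Cd24a was not tested.

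**Figure D2:**
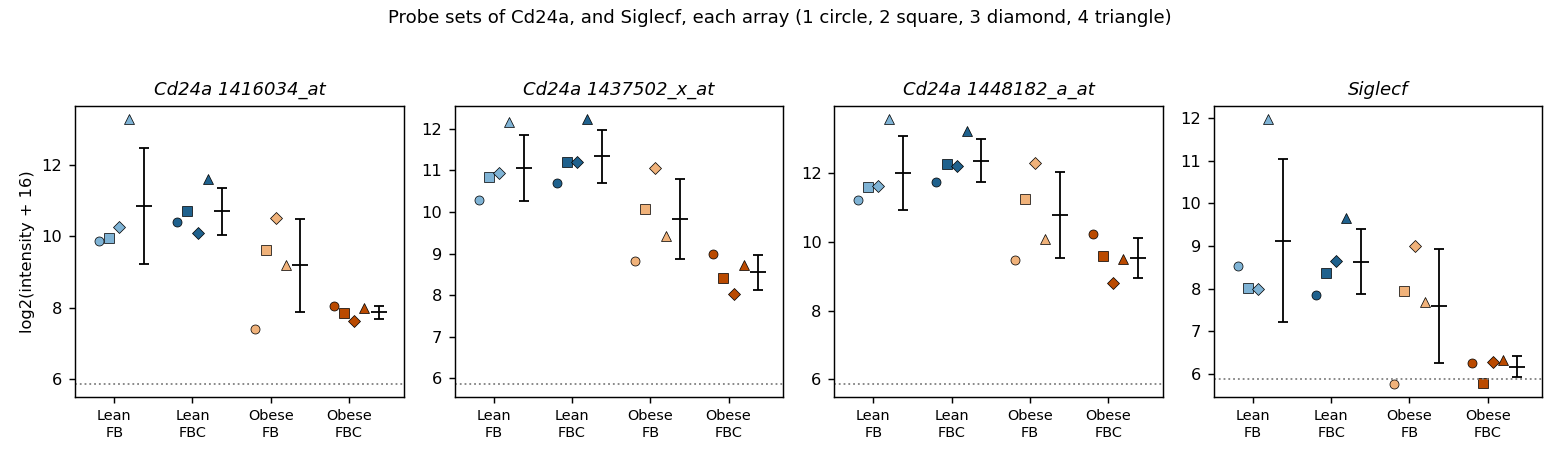
Log2 level (vertical axis) of the 3 Cd24a probe sets and of Siglecf on the 16 arrays, by group, with circles, squares, diamonds and triangles for arrays 1 to 4. All 3 Cd24a probe sets are lower in obese than in lean FBC cells, and Siglecf is highest on lean FB array 4, at 11.98.

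Xcr1 (chr9:123852315-123862029), the chemokine receptor that defines cDC1 cells, read 4.28 to 5.55 in lean FB, 4.11 to 5.70 in lean FBC, 4.96 to 5.76 in obese FB and 4.57 to 5.54 in obese FBC cells. All 16 values lay below the array median. The group means were 5.10 ± 0.57, 4.92 ± 0.84, 5.24 ± 0.35 and 4.95 ± 0.45 (SD, n = 4). In a fit of all single-symbol probe sets its changes were 0.14 and 0.02 with obesity in FB and FBC cells and -0.18 and -0.30 from FB to FBC in lean and obese mice, with adjusted p of 0.756 or more. A dim probe set does not show that the transcript was absent.

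**Figure D3:**
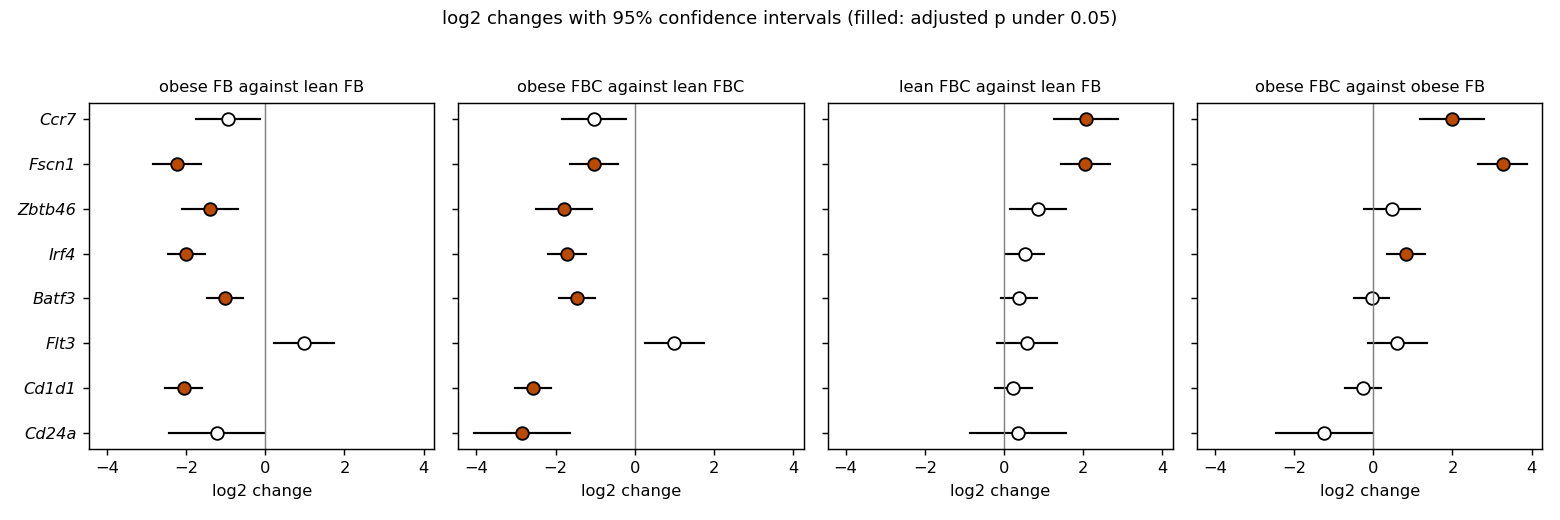
Log2 change (horizontal axis) with its 95% interval for the 8 tested genes in 4 comparisons, filled where the adjusted p was under 0.05. Cd1d1, Irf4, Batf3, Zbtb46 and Fscn1 lie below 0 with obesity in both populations, Flt3 lies above 0, and Ccr7 and Fscn1 are about 2 or more above 0 in FBC against FB cells.

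None of the 8 genes had a limma-called difference between its FB and FBC obesity changes, where 0.16% of all tested genes were called. With no adjustment 1 gene had a limma p under 0.05, Fscn1. The next largest difference was that of Cd24a, -1.62 (95% interval -3.33 to 0.10, adjusted p = 0.404). The median over the 8 genes was -0.24, against 0.07 over all tested genes.

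Other dendritic cell genes were read in lists that hold none of the 10 genes. These lists were also chosen with earlier results of these data known, so counts from them describe and do not test. Their counts stand against 4.07% of all tested genes lower and 1.81% higher in FB cells with obesity, and 5.95% lower and 8.12% higher in FBC cells. For single calls in a list of 14 or 18 genes these shares are close, so such genes are given as values and not as a change of the list. Of 28 tested genes of mature and migratory dendritic cells, 5 fell with obesity in FB cells and none rose, and in FBC cells 15 fell and 1 rose. The median change was -0.34 and -0.70, against 0.03 and 0.08 over all tested genes. The chemokines Ccl17 and Ccl22, which draw T cells that carry Ccr4, fell most in FB cells. Ccl17 read 8.33 to 9.17 in lean FB and 5.50 to 6.44 in obese FB cells, and it fell by 2.88 (adjusted p = 1.27e-05). In FBC cells it read 9.30 to 10.72 in lean and 6.58 to 6.94 in obese mice, and it fell by 3.34 (adjusted p = 2.03e-06). Ccl22 fell by 2.48 in FB cells (adjusted p = 0.000586) and fell by 2.05 in FBC cells (adjusted p = 0.00129). Socs2, a feedback inhibitor of cytokine signalling, fell by 2.36 in FB cells (adjusted p = 1.14e-05).

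In FBC cells the costimulatory ligand Cd80 fell by 2.49 (adjusted p = 0.000228) and the interleukin 12 subunit Il12b fell by 2.22 with overlapping arrays (adjusted p = 0.00693). Serpinb6b, a serine protease inhibitor, was the gene that rose there, by 1.64 (adjusted p = 0.00284). From FB to FBC, 1 of the 28 rose in lean mice, Adcy6, an adenylyl cyclase, by 1.39 (adjusted p = 0.0129). In obese mice 6 rose and 6 fell, where 5.11% of all tested genes rose and 3.28% fell. Serpinb6b rose by 2.24 (adjusted p = 0.000453), Ccl22 by 2.16 (adjusted p = 0.00146) and Il12b by 2.07 (adjusted p = 0.0147). The 6 that fell were Cd80 (-1.74, adjusted p = 0.00598), Cd274 (-1.34, 0.0318), Samsn1 (-0.94, 0.0107), Cd86 (-0.90, 0.0103), Rel (-0.83, 0.0318) and Fas (-0.69, 0.0289).

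Of 18 tested genes shared by classical dendritic cells, none was called in FB cells with obesity, and 3 fell and 1 rose in FBC cells (median -0.20 and -0.49). Hmgn3, a nucleosome-binding protein, fell by 1.17 (adjusted p = 0.00864) and Kmo, an enzyme of tryptophan breakdown, fell by 1.04 (adjusted p = 0.00803), while the receptor tyrosine kinase Kit rose by 0.93 (adjusted p = 0.0333). From FB to FBC in obese mice, Kit rose by 1.66 (adjusted p = 0.00146), the MHC class II gene H2-Eb2 rose by 1.78 (adjusted p = 0.00197), and the transcription factor Runx3 fell by 2.24 (adjusted p = 0.0436).

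Of 14 tested cDC1 genes, 1 rose and 1 fell in FB cells, and 1 rose and 2 fell in FBC cells (median -0.02 and -0.08). The riser in both was Cadm1, an adhesion molecule used to recognise cDC1 cells, by 1.83 (adjusted p = 0.00167) and by 2.94 (adjusted p = 8.71e-06). Its direction was thus the opposite of that of Batf3. In FB cells Fgd6 fell by 0.94 (adjusted p = 0.0444), and in FBC cells Septin3 fell by 1.03 (adjusted p = 0.0141) and Naaa, a lysosomal amidase, fell by 0.92 (adjusted p = 0.00782). Irf8, the factor that works with Batf3 in cDC1 cells, read 10.79 to 12.12 over all arrays. From FB to FBC in obese mice 4 of the 14 rose, among them Cadm1 by 1.54 (adjusted p = 0.00476), the RNA sensor Tlr3 by 1.13 (adjusted p = 0.006) and the endocytic receptor Ly75 by 1.13 (adjusted p = 0.0155).

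Of 14 tested genes of cDC2 and monocyte-derived dendritic cells, 3 fell in FB cells, and 4 fell and 2 rose in FBC cells (median -0.09 and -0.30). Cd2, an adhesion receptor, fell by 2.86 in FB cells (adjusted p = 8.08e-05) and fell by 3.40 in FBC cells (adjusted p = 6.03e-06). The lectin Mgl2 fell by 2.39 in FB cells (adjusted p = 0.00167) and fell by 2.28 in FBC cells (adjusted p = 0.00123). The lectin Cd209a fell by 1.31 in FB cells (adjusted p = 0.00908) and fell by 0.92 in FBC cells (adjusted p = 0.0347). The 2 that rose in FBC cells were Sirpa, by 0.87 (adjusted p = 0.0271), and Tnfrsf11a, by 0.72 (adjusted p = 0.0145). The chemokine receptor Ccr2 fell by 1.25 from FB to FBC in obese mice (adjusted p = 0.000327). Cd2 also stands in the list of T and natural killer cell genes and Ccr2 in that of monocyte genes, so each is counted in both. Of 7 tested plasmacytoid dendritic cell genes none was called with obesity, and 1, the adaptor Blnk, rose in FBC over FB cells in obese mice by 0.87 (adjusted p = 0.0137).

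**Figure D4:**
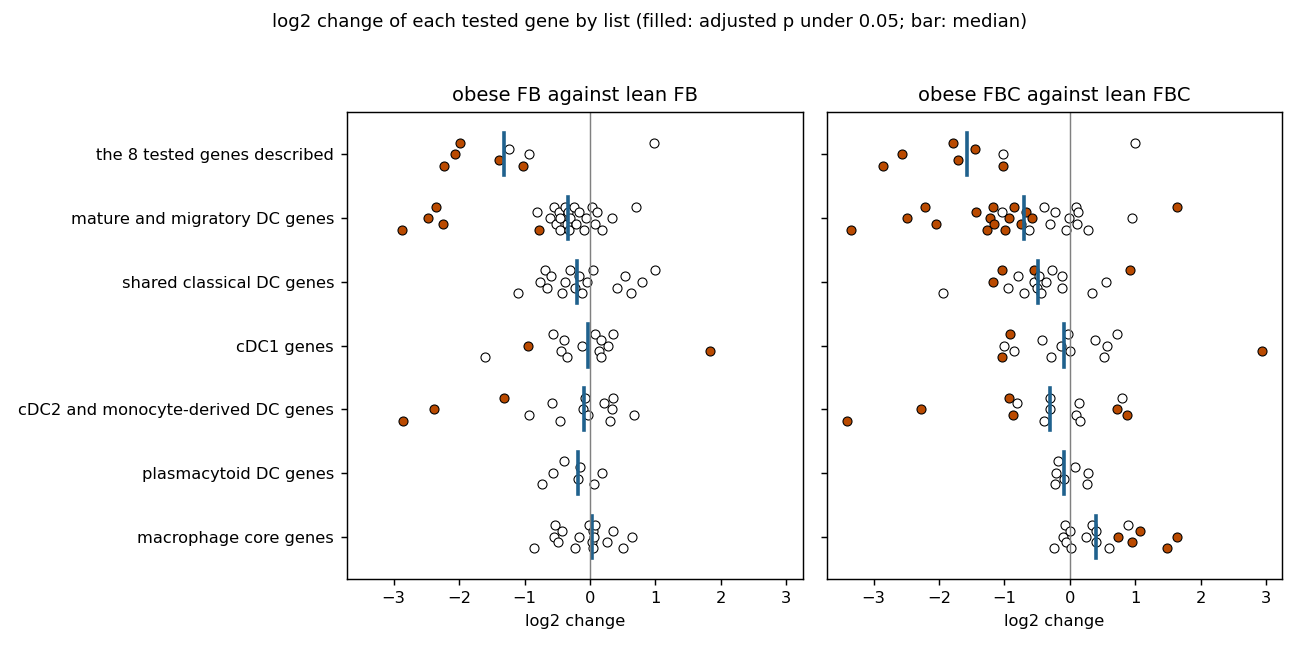
Log2 change of each tested gene with obesity (1 point a gene), by list, in FB and in FBC cells, with a bar at each list's median and filled points where the adjusted p was under 0.05. The 8 tested members have medians of -1.31 and -1.58, and the mature and migratory dendritic cell genes of -0.34 and -0.70.

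Markers of other cells were read in the same comparisons. Their counts stand against 4.07% of all tested genes lower and 1.81% higher in FB cells with obesity, and 5.95% lower and 8.12% higher in FBC cells. From FB to FBC in obese mice, 3.28% of all tested genes fell. Counts of 2 in a list of 8 genes are too few to read as a change of the list. The summed intensity of the 12 monocyte genes was 27124 to 49558 in lean FB, 23576 to 31199 in lean FBC, 45800 to 66227 in obese FB and 14870 to 17743 in obese FBC cells. With obesity 4 of them rose in FB cells and 4 fell in FBC cells, and 11 fell from FB to FBC in obese mice, Ccr2 among those that fell in both comparisons. The 14 fibroblast genes summed to 15040 to 39898, 13808 to 30209, 8829 to 11961 and 11941 to 29946 in the same order of groups, and 7 fell with obesity in FB cells. Of the 14 T and natural killer cell genes with a probe set, 8 were tested, and 3 fell in FB and 2 in FBC cells with obesity, Cd2 among them both times. Their sums were 1569 to 1959, 1805 to 4009, 889 to 1224 and 1566 to 2095, and the T cell receptor genes Cd3e and Cd3d lay at or below the array median on every array. The 9 adipocyte genes with a probe set summed to 3608 to 11305, 6031 to 12548, 3869 to 7223 and 7157 to 7859. Of 8 tested, 3 fell with obesity in FB cells, and 2 fell and 2 rose in FBC cells. Car3, carbonic anhydrase 3, fell by 4.33 in FB cells (adjusted p = 8.53e-05) and fell by 3.63 in FBC cells (adjusted p = 0.00018). Ces1d, a carboxylesterase, fell by 1.68 (adjusted p = 0.00179) and fell by 1.62 (adjusted p = 0.00128), and the hormone gene Adipoq fell by 1.67 in FB cells (adjusted p = 0.034). Lep and the lipase gene Pnpla2 rose in FBC cells by 1.12 (adjusted p = 0.049) and 1.11 (adjusted p = 0.0208). Of the 17 macrophage core genes, none was called in FB cells and 5 rose in FBC cells with obesity. Their sums were 79844 to 87266, 66865 to 85167, 77598 to 87032 and 92165 to 98387. The part of these cells in the levels of the dendritic cell genes was not tested.

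The genes whose array-to-array pattern was most like that of a member were found by the root mean square difference of centred log2 levels over the 16 arrays. For Ccr7 they were Dcstamp (0.619), Mreg (0.701), Tnfrsf9 (0.703), Socs2 (0.728) and Ly75 (0.731), against a median of 1.299 over all genes. For Fscn1 they were Ccl22 (0.673), Dcstamp (0.692), Socs2 (0.707), Strip2 (0.787) and Rras2 (0.79), against 1.671. For Flt3 they were Gyg (0.338), Nedd4l (0.367), Chek2 (0.371), Inf2 (0.373) and Gga1 (0.373), against 0.815. Dcstamp and Socs2 were thus among the 5 nearest of both migration genes, and none of the 5 nearest to Flt3 was. A gene with no change over the arrays would lie at 1.241 from Ccr7, 1.634 from Fscn1 and 0.751 from Flt3, close to these medians. All arrays share the 4 groups, so these values are descriptions.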

How the data were processed

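RNA was measured on 16 Affymetrix Mouse Genome 430 2.0 arrays, 4 in each of 4 groups taken from the sample titles. The deposited values are linear intensity, 1 per probe set for 45101 probe sets, and Affymetrix Expression Console is named per the submitters' processing notes. The summarization method is not given in the sources used here. The 2% trimmed mean was 250 on every array, so the deposited intensity had been scaled per array. The number of arrays limits the precision.

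Here 16 was added, log2 taken and the arrays quantile normalized, controls included. A fold change is on this scale and understates the change of dim genes. Probe sets were named from GEO's platform annotation: 34945 had 1 symbol, 932 several and 9160 none, besides 64 controls. For each gene the single-symbol probe set of highest mean was kept. A gene was tested if 4 or more of the 16 arrays had it over their median, which left 11908. One limma model (limma 3.58.1, R 4.3.3) over all arrays, with 16.5 total degrees of freedom, gave every change, standard error, 95% interval and Benjamini-Hochberg adjusted p over all genes tested, with a threshold of 0.05. P-values of genes come from this fit, and those of a gene's further probe sets and of Xcr1 from a fit of all single-symbol probe sets. The script was tested on simulated data.

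Deviations from the group mean correlated between same-numbered lean FB and FBC arrays 1 to 4 at 0.135, 0.231, 0.299 and 0.595. In obese mice the values were 0.31, 0.033, -0.03 and -0.137. The best-matching FBC array had the same number for lean FB arrays 2 to 4 and for obese FB array 1. Array 4 of both lean groups was of high actin ratio. Named genes were all 10 members, Itgax, and up to 3 called genes of largest change per dendritic cell list and comparison. The 5 genes most like Ccr7, Fscn1 and Flt3 were also named. Siglecf, Rnase2a, Ccr3, Alox15, Irf8, Epx, Prg2, Ighm, Pax5, Cr2, Cd3e, Cd3d and the called adipocyte genes were added as markers after their values were seen. So were Sirpa, Tnfrsf11a and the mature dendritic cell genes that fell from FB to FBC in obese mice. Members and lists were chosen with earlier results of these data known. The alternatives tried were scaling, pseudocount, filter, probe set rule, array weights, eBayes with trend and robust settings, a fit of the compared groups alone, actin ratio, a replicate block and leaving out arrays.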

Additional observations from a re-analysis of the deposited data

Results flagged for a closer look

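Over 36 sets of 4 arrays (9 genes in 4 groups), 2 held an array far from the other 3, by a limit that chance passes in about 1 of 20 sets. Fscn1 in lean FBC cells was at 12.76 on array 4, above the 11.95 to 12.08 of the other 3 arrays. Flt3 in obese FB cells was at 7.04 on array 1, below the 7.65 to 7.77 of the other 3 arrays.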

How the results depend on the processing

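Over 30 alternatives, 1112 of 1192 gene results kept direction and side of the threshold, 35 lost and 23 gained a call, and 22 uncalled ones changed sign. With a gene's probe sets averaged, 3 members rather than 5 were called in FB cells with obesity and 1 rather than 2 in FBC over FB cells in lean mice. The lean count was also 1 with no filter, with all single-symbol probe sets tested singly, with a pseudocount of 1 and when the 3 high actin arrays were left out, 4 with array weights, and 1 to 2 when arrays were left out singly. Differences of the obesity effect numbered 0, and 2 with array weights (Fscn1 1.72, adjusted p = 0.00376, and Cd24a -2.56, adjusted p = 0.00804). With array weights Ccr7 also fell with obesity, by 1.12 in FB and by 1.23 in FBC cells (adjusted p = 0.0106 and 0.00944), Flt3 rose in both and by 0.66 in lean FBC over FB cells (0.0308), Zbtb46 rose there by 0.92 (0.0161) and Cd24a fell by 1.91 in obese ones (0.00648). In a fit of the compared groups alone Ccr7 fell by 0.94 in FB cells (0.0204). With the actin covariate Flt3 rose by 1.09 in obese FBC over FB cells (0.0135). The cause was not tested.

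The sign of Batf3 in obese FBC against FB cells turned without quantile normalization (0.11), with median centring (0.10), cyclic loess (0.0073), the actin covariate (0.083), and without some single arrays (range over all -0.18 to 0.093). For the difference of the obesity effect, Ccr7 turned without quantile normalization (0.10), with a pseudocount of 1 (0.047) and without some single arrays (range over all -0.50 to 0.22). Flt3 turned with a pseudocount of 1 (-0.024), array weights (-0.16) and without some single arrays (range over all -0.30 to 0.39), and Zbtb46 without the high actin arrays (0.038).

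With the replicate block, 5, 6, 2, 4 and 0 members were called in the 5 comparisons, in the order used here. The lean change of Ccr7 stayed 2.07 (adjusted p = 0.0132), and Flt3 rose in obese FBC over FB cells (0.61, adjusted p = 0.0381). Of the obese FB arrays, array 1 alone was most like the FBC array of its own number. The block changed no other call. Dim probe sets, as for Xcr1, limit what can be read.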
